A study of Homo sapiens with 12 samples.

Results

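The cytosolic ribosomal protein genes are the genes named RPL or RPS with a number, with RPLP0, RPLP1, RPLP2 and RPSA, leaving out pseudogenes, the RPS6K and RPS4Y genes, antisense genes and RPS19BP1. Of 82 coding genes with such names in the reference annotation, 57 had a probe set annotated with that symbol alone, 15 were found only on probe sets that carry other symbols too, and 10 were not analysed here. For each gene the probe set of highest mean value was taken, and 54 genes, 21 of the small and 33 of the large subunit, reached log2 4 or more on at least 3 arrays. These 54 were among 13130 genes tested. Just outside the limit were RPL36A (mean log2 3.51), RPLP2 (3.32) and RPL3L (2.75), and just inside it were RPL27A (5.48) and RPL10L (6.06).

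A cytosolic ribosome is built from ribosomal RNA and a single copy of most of these proteins. The small subunit reads the mRNA and the large subunit joins amino acids. Their mRNAs are among the most abundant of a growing cell, and most start with a C followed by a run of pyrimidines, the 5′ terminal oligopyrimidine (TOP) tract, through which mTOR and LARP1 control their translation. Array values measure the mRNA and not its translation.

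The study used Sk-hep1, an established human line whose labels give liver and ascites as its source and endothelial adenocarcinoma as its type. Cells were kept for 12 or 24 hours in high-fat medium (HFM), made on DMEM/F12, or in growth medium (GM), made on DMEM. The groups were HFM for 12 hours, GM for 12 hours, HFM for 24 hours and GM for 24 hours, with 3 arrays each. All cells had been grown in DMEM with fetal bovine serum, antibiotics and L-glutamine, no gene was altered, and the only cells were of this line. The labels do not give the composition of HFM or GM, so fat and basal medium cannot be told apart. Separate cultures are not stated for the 3 arrays of a group, and the p-values cover the spread among arrays, which may be technical.

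The 12 arrays had no identical columns, and correlations within groups were 0.994 to 0.998. Of 9 endothelial markers, 4 passed the limit, and CDH5, KDR, TEK, TIE1 and VWF did not. Vimentin, a mesenchymal marker, averaged log2 13.6. Of 5 epithelial markers 3 passed, the keratins KRT8, KRT18 and KRT19, with group means from log2 10.7 (KRT19) to 13.7 (KRT18), and CDH1 and EPCAM did not. Of 5 hepatocyte markers SERPINA1 and TTR passed, with group means up to log2 5.69, and ALB, APOA1 and APOB did not. Of 5 leukocyte markers CD14, CD79A and CORO1A passed, with group means up to log2 6.31, and PTPRC and CD3E did not. The median of the tested genes was log2 7.08 on HFM arrays at 24 hours against 7.26 on GM arrays at 24 hours, and 7.30 on HFM arrays at 12 hours against 7.28 on GM arrays at 12 hours. The 3′ minus 5′ signal of the ACTB controls, a measure of RNA quality, was 1.58 ± 0.06 on HFM arrays at 24 hours and 1.07 ± 0.05 on GM arrays at 24 hours (SD, n = 3 each). At 12 hours it was 0.84 ± 0.13 on HFM arrays and 0.89 ± 0.03 on GM arrays. Of the HFM arrays at 12 hours, replicate 1 had a tested-gene median of log2 7.38 and an ACTB signal of 0.69. Replicates 2 and 3 had medians of 7.26 and 7.26 and signals of 0.92 and 0.90.

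The values of the ribosomal protein genes lay at the top of the arrays. Their median was log2 13.29, and 51 of 54 were at log2 12 or more. Of the 78 tested genes within 1 log2 of the highest value on any array, 13.93, 42 were ribosomal protein genes, and 46 of the 54 were among the 100 genes with the highest values. The exceptions with low values were RPL27A, RPL10L and RPL39L, with a mean of log2 8.75. Values of different probe sets are not compared as amounts of RNA. Whether signals this close to the top understate changes was not tested. Of the representing probe sets, 14 are of the type that may bind other transcripts and 29 of the type shared by related transcripts. Ribosomal protein genes have many near-identical pseudogene copies, so the values of single genes are uncertain to that extent.

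The genes also varied little. The range over the 4 group means had a median of 0.13 on the log2 scale, against 0.608 over all tested genes. It was under 0.25 for 41 of the 54, or 75.9%, against 10.6% of all tested genes. The narrowest range was that of RPL41, the smallest ribosomal protein, at 0.0173. The widest was that of RPL39L, a paralogue of RPL39 best known from testis, at 1.11, followed by RPS24 (0.454), RPS9 (0.385) and RPL10L (0.374). The spread within groups was small too, with a median SD of 0.0307 against 0.101 over all tested genes. Over the 205 other tested genes at log2 12 or more this SD was 0.0454. Their median absolute change, HFM against GM, was 0.103 at 12 hours and 0.140 at 24 hours. The members had 0.0735 and 0.0428, and all tested genes 0.278 and 0.259. From log2 13 to 14, 41 members had 0.0643 and 0.0382, and 32 other genes 0.0546 and 0.0835. The range over groups was not taken for other genes at this level. Of the 54 genes, 28 were called in none of the 5 comparisons described below, or 51.9%, against 10.0% of all tested genes. Another variance model, robust trended eBayes, called more members in each comparison, and the share called in none was not counted with it.

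**Figure D1:**
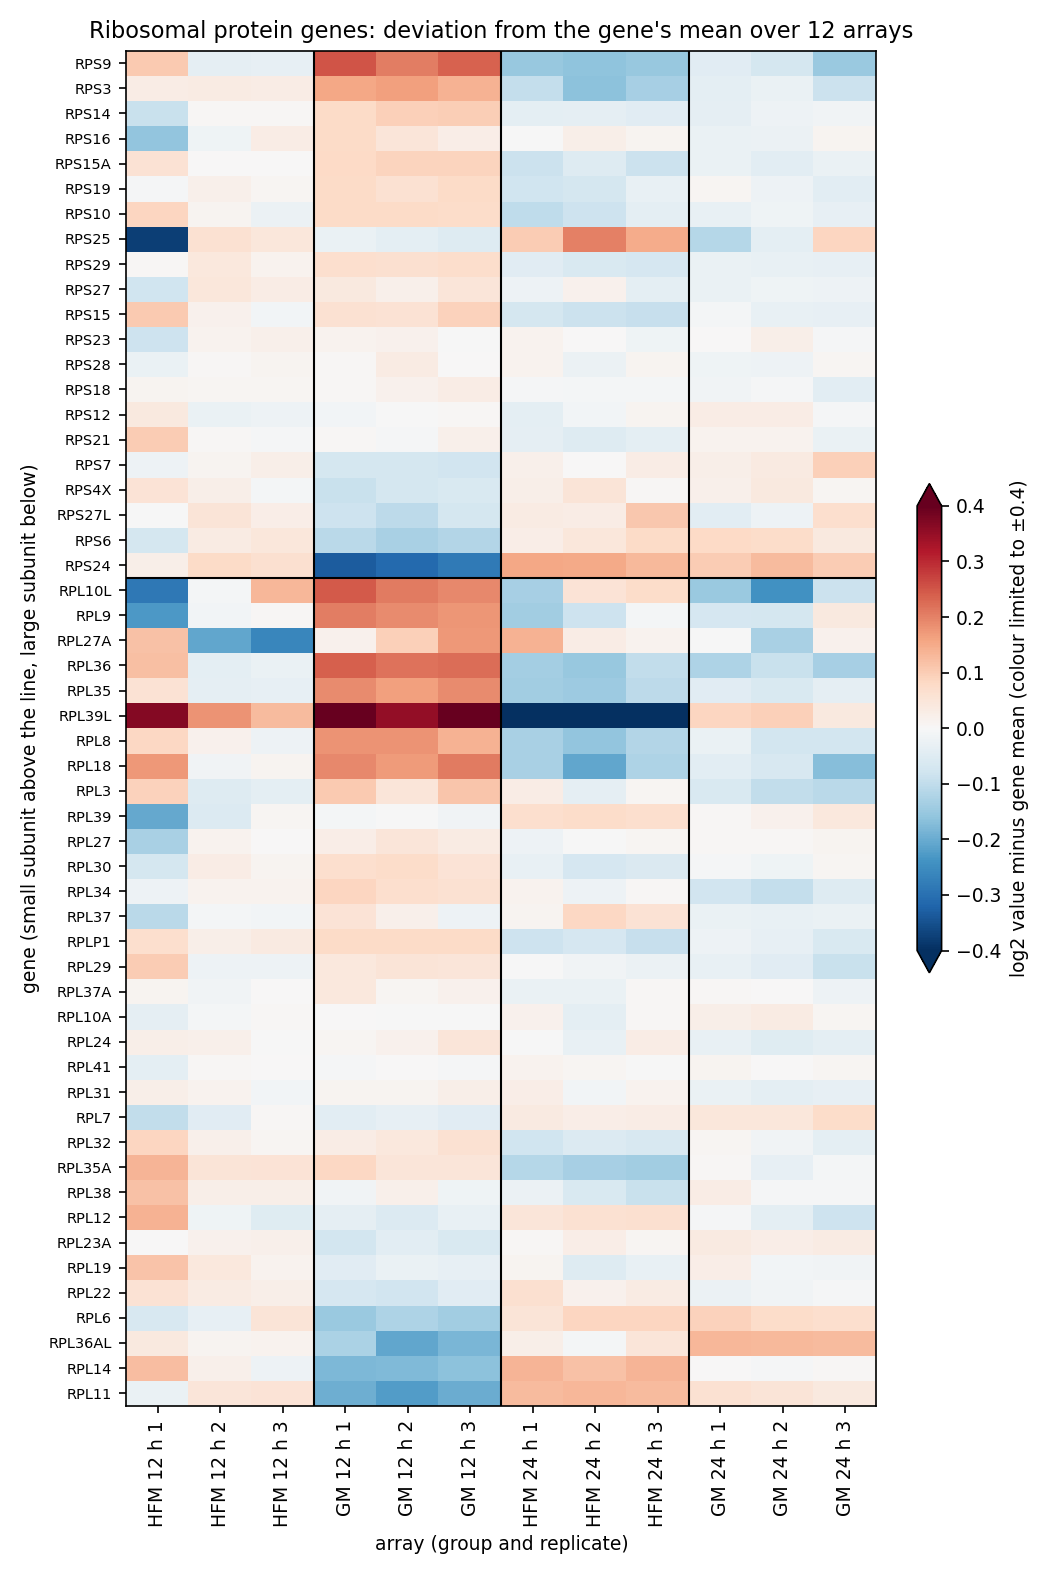
Deviation of each of the 54 ribosomal protein genes (rows, small subunit above the line and large subunit below) from its own mean over 12 arrays, on the log2 scale, for each array (columns, by group and replicate). Most rows are pale, the GM arrays at 12 hours hold most of the dark cells, and RPL39L is dark blue on all 3 HFM arrays at 24 hours, where its value exceeds the colour limit.

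The start of the gene was read from RefSeq (GRCh38.p14) for the 47 members that its table of starts holds. A start with C followed by 4 or more C or T on the transcript strand was present in 32 of 47, or 68.1%, against 5.14% of 27305 genes with an annotated start and 7.46% of 67 mitochondrial ribosomal protein genes. The following windows hold the 10 bases before the start and the first 20 bases of the transcript, 5′ to 3′, for genes whose change is described below. Capitals mark the unbroken run of C and T from the first transcribed base. RPS24, RPL11, RPL14 and RPL36AL were called higher and the other 4 lower in HFM at 12 hours.
RPS24, chr10:78033853-78033882, plus strand: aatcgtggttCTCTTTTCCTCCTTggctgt
RPL11, chr1:23691796-23691825, plus strand: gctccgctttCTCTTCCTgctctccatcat
RPL14, chr3:40457329-40457358, plus strand: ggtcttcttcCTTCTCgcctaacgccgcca
RPL36AL, chr14:49620607-49620636, minus strand: tcttccctttCCTgttaggcgagagctgcg
RPS9, chr19:54200848-54200877, plus strand: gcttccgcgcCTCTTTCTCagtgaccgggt
RPL36, chr19:5690285-5690314, plus strand: cggcgccagcCCTTCCgccacggccgtctc
RPL35, chr9:124861938-124861967, minus strand: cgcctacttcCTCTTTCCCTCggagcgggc
RPL10L, chr14:46651762-46651791, minus strand: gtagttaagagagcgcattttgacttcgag

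Runs ranged from 14 bases in RPS24 to 3 in RPL36AL and 0 in RPL10L, and both called directions held long and short runs. For RPL11 the window is that of 1 of 2 annotated starts. Of the 32 genes with the tract, 10 were called in HFM against GM at 12 hours, and of the 15 without it, 4 were called. Over all tested genes 61.9% were called in that comparison, and over all 54 members 29.6%. A match describes these letters and does not show that the start is used in these cells.

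At 12 hours, HFM against GM asked what the medium did early. Ribosomal protein genes moved in both directions by small amounts, with 7 called higher and 9 lower among the 54, or 29.6%, against 61.9% of all tested genes called (28.9% higher and 33% lower). A call means a Benjamini-Hochberg adjusted p under 0.05 in limma over all tested genes. The share depended on the level and on the variance model. Among genes with means from log2 12 to 13, 5 of 10 ribosomal protein genes and 68 of 173 other genes were called, and from log2 13 to 14, 9 of 41 and 9 of 32. With robust trended eBayes, 12 members were called higher and 16 lower, or 51.9%, against 62.6% of all tested genes. The median change was −0.03 on the log2 scale, against −0.07 over all tested genes, and no member changed 2-fold. The arrays of the 2 media did not overlap for 28 members, 13 higher and 15 lower in HFM, against 63.6% of all tested genes (30.4% higher and 33.2% lower). Among small subunit genes 5 of 21 were called, and among large subunit genes 11 of 33. In bulk RNA, fewer cells of a type and less RNA per cell cannot be told apart. With arrays centred on the median of the tested genes, the split was 4 higher and 12 lower, against 64.8% of all tested genes called.

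RPS24, a small subunit protein needed for processing of the small subunit's ribosomal RNA, was the largest rise at 12 hours. It had log2 values of 13.31, 13.36 and 13.35 on HFM arrays at 12 hours, against 12.95, 12.98 and 13.00 on GM arrays at 12 hours. Every HFM array was above every GM array, and the change was 0.36 ± 0.04 (SE, n = 3 arrays per group, adjusted p = 2.1e-05). A further RPS24 probe set with a mean of log2 8.15 had values of 7.60, 8.21 and 8.13 on HFM arrays at 12 hours, against 6.64, 6.43 and 6.72 on GM arrays at 12 hours. That probe set also separated the media, by 1.38.

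RPL11 joins 5S ribosomal RNA and RPL5 in a particle that can bind MDM2, the ubiquitin ligase of p53. It had 12.84, 12.91 and 12.92 on HFM arrays at 12 hours, against 12.67, 12.64 and 12.66 on GM arrays at 12 hours. The groups did not overlap, and the change was 0.23 ± 0.04 (SE, n = 3 per group, adjusted p = 0.00071). RPL14, a large subunit protein, rose by 0.21 ± 0.05, with 13.32, 13.21 and 13.17 on HFM arrays against 13.01, 13.02 and 13.03 on GM arrays at 12 hours. RPL36AL, an autosomal paralogue of the X-linked RPL36A, rose by 0.19 ± 0.04, with 12.16, 12.13 and 12.13 on HFM arrays against 11.99, 11.91 and 11.94 on GM arrays at 12 hours. In both genes the lowest HFM array was above the highest GM array. These 4 rises kept their calls when any 1 of the 6 arrays of the comparison was left out.

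The other called rises at 12 hours were smaller. RPL6, a large subunit protein, rose by 0.12. RPS6, the substrate of the S6 kinases, rose by 0.12, and its other probe sets at log2 13.07 and 13.20 rose by 0.25 and 0.26. A further RPS6 probe set with a mean of log2 4.89 was called in the opposite direction, at −0.50 (limma over all probe sets, adjusted p = 0.0019). RPL22, an RNA-binding large subunit protein, rose by 0.10 (adjusted p = 0.049). Its other probe sets at log2 10.70 and 10.56 were called higher by 0.31 and 0.23 (limma over all probe sets, adjusted p = 0.00024 and 0.016). Those at log2 12.88 and 12.73 each differed by 0.10 and were not called. For RPL6, RPS6 and RPL22 the call was lost when any array but HFM replicate 1 was left out, with adjusted p up to 0.13.

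Among falls, RPL9, a large subunit protein, had 12.99, 13.21 and 13.22 on HFM arrays at 12 hours, against 13.42, 13.41 and 13.40 on GM arrays at 12 hours. The groups did not overlap, HFM replicate 1 was the lowest array, and the change was −0.27 ± 0.07 (SE, n = 3 per group, adjusted p = 0.0049). RPS9, a small subunit protein, fell by 0.22 ± 0.05, with 12.82, 12.68 and 12.68 on HFM arrays against 12.97, 12.92 and 12.95 on GM arrays at 12 hours. RPL36, a large subunit protein, fell by 0.21 ± 0.05, with 12.78, 12.62 and 12.64 on HFM arrays against 12.90, 12.88 and 12.89 on GM arrays at 12 hours. RPL35, which lies at the exit of the peptide tunnel, fell by 0.18 ± 0.04, and its HFM arrays had 13.10, 13.00 and 13.00 against 13.23, 13.20 and 13.23 on GM arrays at 12 hours. In RPS9, RPL36 and RPL35 the media did not overlap either, and HFM replicate 1 was the HFM array nearest to GM. These 4 falls kept their calls when any 1 array was left out.

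RPL10L, an autosomal retrogene of RPL10 best known from male germ cells, fell by 0.27 ± 0.10 (adjusted p = 0.029). It had 5.78, 6.05 and 6.20 on HFM arrays at 12 hours, against 6.31, 6.27 and 6.26 on GM arrays at 12 hours, and HFM replicate 1 was far below the others. Without that array the change was −0.15 and was not called, and the call was also lost without any 1 of the GM arrays. RPL39L fell by 0.18, RPL8 by 0.14, RPS3, a protein of the mRNA entry site, by 0.12, and RPS14, a protein of the decoding platform, by 0.12. RPL39L, RPL8, RPS3 and RPS14 each lost the call without GM replicate 1 and without 2 or more of the other arrays, with adjusted p up to 0.12 for RPL39L and 0.096 for RPS14. Over all members, 8 were called without GM replicate 1, 9 without GM replicate 2 or GM replicate 3, 10 without HFM replicate 2 or HFM replicate 3, and 21 without HFM replicate 1. Of all tested genes, 54.6% to 55.2% were called without 1 of the GM arrays. The share was 56.5% without HFM replicate 2, 57.8% without HFM replicate 3 and 68.4% without HFM replicate 1.

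Members of the fixed gene list that were not called at 12 hours were RPS19, RPS27, RPS27L, RPL3, RPL39 and RPLP1. RPS19, the protein most often mutated in Diamond-Blackfan anaemia, differed by −0.06 with an adjusted p of 0.20. RPS27L, a p53-inducible paralogue of RPS27, differed by 0.11 with an adjusted p of 0.063, and RPS27 by −0.04. A further RPS27L probe set with a mean of log2 8.11 was called in the opposite direction, at −0.32 (limma over all probe sets, adjusted p = 0.0027). An RPS27L probe set at log2 7.05 differed by −0.15 and was not called. RPL3, which lies near the peptidyl transferase centre, differed by −0.09, RPL39, a protein of the peptide tunnel, by −0.08, and RPLP1, a protein of the acidic stalk, by −0.03.

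**Figure D2:**
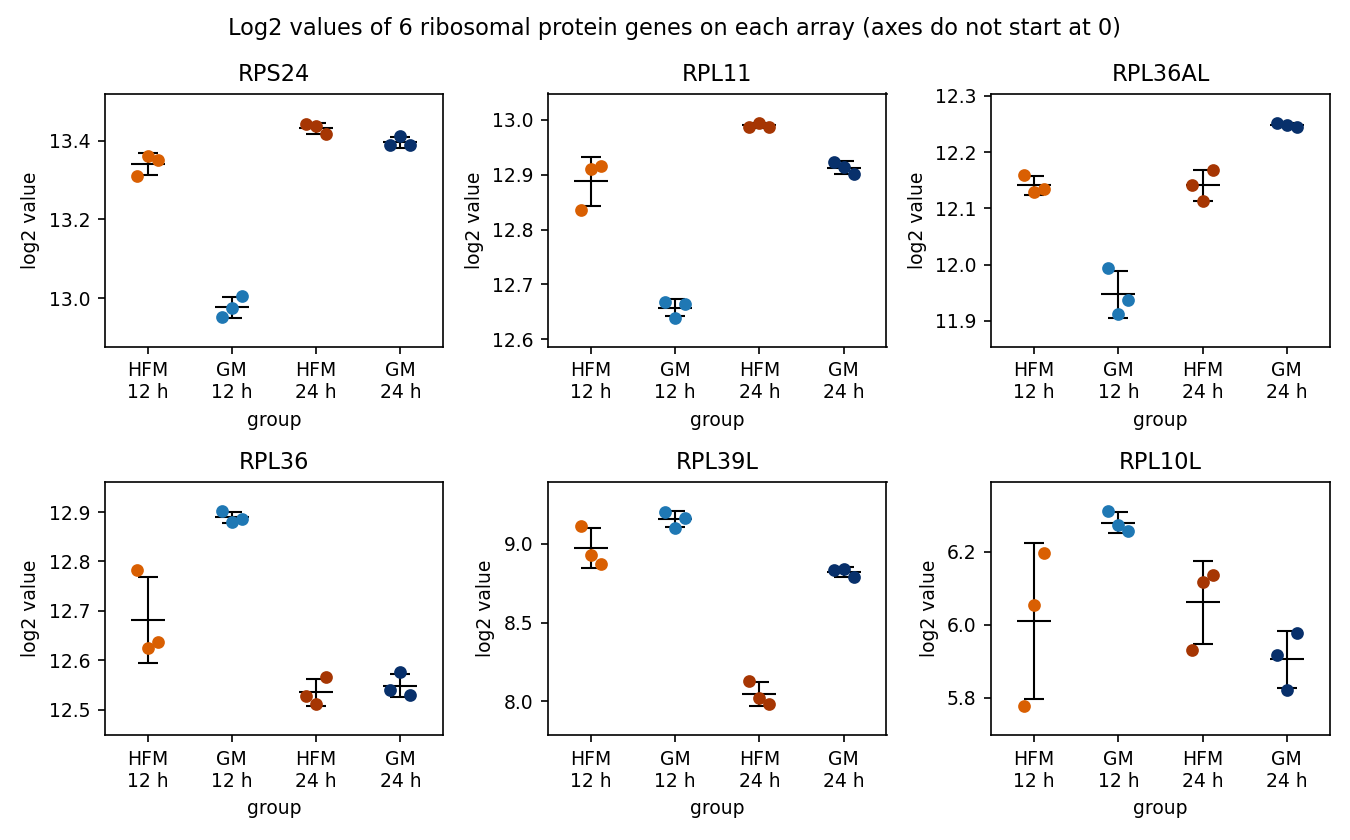
Log2 values of RPS24, RPL11, RPL36AL, RPL36, RPL39L and RPL10L on each array (points), with the group mean and SD (bars, n = 3), for HFM and GM at 12 and at 24 hours; the axes do not start at 0. GM at 12 hours stands apart from the other 3 groups in the first 4 genes, and HFM at 24 hours stands apart in RPL39L.

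At 24 hours the medium was compared again after a longer exposure. As deposited, the values of 3 of 54 ribosomal protein genes were called, 1 higher and 2 lower in HFM, or 5.56%, against 58.1% of all tested genes. The median change of the members was −0.01, against −0.08 over all tested genes. Arrays of the media did not overlap for 30 members, 13 higher and 17 lower, against 68.7% of all tested genes (25.7% higher and 43% lower). Among genes with means from log2 13 to 14, 1 of 41 ribosomal protein genes and 14 of 32 other genes were called, and from log2 12 to 13, 1 of 10 and 89 of 173. The count depended on the variance model and on the scale. Robust trended eBayes called 6 members higher and 6 lower, or 22.2%, against 58.9% of all tested genes. The median of the tested genes differed by −0.18 between HFM and GM arrays at 24 hours, and with each array centred on that median, 48 members were called higher and 1 lower, with a median change of 0.17, and 63.1% of all tested genes were called in either direction, with a median of 0.10. With quantile normalisation repeated on the tested genes, 2 were called higher and 8 lower, against 60.7% of all tested genes called. The median change was then −0.03 for the members and 0.02 over all tested genes, so the members' median was the lower. As deposited and with the arrays centred, the members' median was the higher. On the centred scale 48 of the 54 were thus called higher in HFM at 24 hours, against 1 on the deposited scale. The median change over all tested genes was itself 0.10 there, so these calls are not relative to the change of the median gene.

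RPL39L, the single lower call with the arrays centred, was called lower on all 3 scales. It had 8.13, 8.02 and 7.98 on HFM arrays at 24 hours, against 8.84, 8.84 and 8.79 on GM arrays at 24 hours. No arrays overlapped, and the change was −0.78 ± 0.07 (SE, n = 3 per group, adjusted p = 1.1e-06) as deposited, −0.60 with the arrays centred and −0.66 with repeated quantile normalisation. Its paralogue RPL39 had 13.64, 13.65 and 13.64 on HFM arrays at 24 hours and 13.58, 13.59 and 13.62 on GM arrays at 24 hours, a difference of 0.05 with an adjusted p of 0.49. A difference between the paralogues was not tested.

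RPL14 had 13.33, 13.31 and 13.33 on HFM arrays at 24 hours, against 13.19, 13.19 and 13.20 on GM arrays at 24 hours, with no overlap. It was 0.13 ± 0.05 higher (adjusted p = 0.034). RPL35A, a large subunit protein mutated in some cases of Diamond-Blackfan anaemia, was lower by −0.12 ± 0.04 (adjusted p = 0.037), with 12.67, 12.65 and 12.64 on HFM arrays against 12.79, 12.75 and 12.78 on GM arrays at 24 hours. Both calls were lost when any 1 of the 6 arrays was left out, with adjusted p up to 0.10, and each such fit called 1 member in all, RPL39L. With the arrays centred, RPL35A differed by 0.06 (adjusted p = 0.17), so its direction turned. RPS24 differed by 0.04, RPL11 by 0.08, RPL36 by −0.01, RPL36AL by −0.11 and RPS6 by −0.01, and none of these passed the test.

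**Figure D3:**
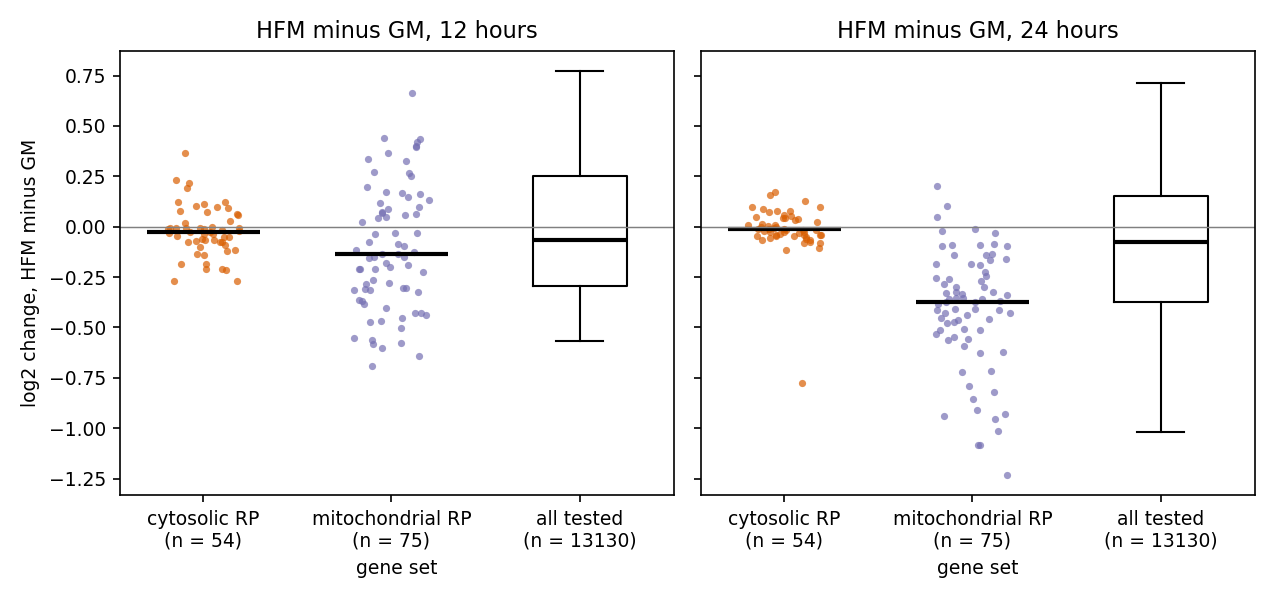
Log2 change, HFM minus GM, at 12 hours (left) and 24 hours (right), as deposited, for 54 cytosolic ribosomal protein genes, 75 mitochondrial ribosomal protein genes (points, with the median as a bar) and 13130 tested genes (box for the quartiles and median, whiskers for the 5th and 95th percentiles). The cytosolic genes lie in a narrow band around 0 at both times, with RPL39L alone far below it at 24 hours, while the mitochondrial genes have a median of −0.37 at 24 hours.

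The mitochondrial ribosomal proteins, a separate set of proteins for translation inside mitochondria, gave a comparison from the same arrays. Of 75 tested, 15 were called higher and 37 lower in HFM at 12 hours, with a median of −0.14. Over all tested genes 28.9% were called higher and 33% lower at 12 hours, and 20.6% higher and 37.5% lower at 24 hours. At 24 hours 0 of the mitochondrial genes were called higher and 60 lower, with a median of −0.37, and with the arrays centred 6 were called higher and 48 lower, with a median of −0.19. On that scale the median was 0.17 for the cytosolic genes and 0.10 over all tested genes, of which 63.1% were called in either direction. The sign of a list's median there is thus not its direction relative to all tested genes. A test of the difference between the lists was not run.

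**Figure D4:**
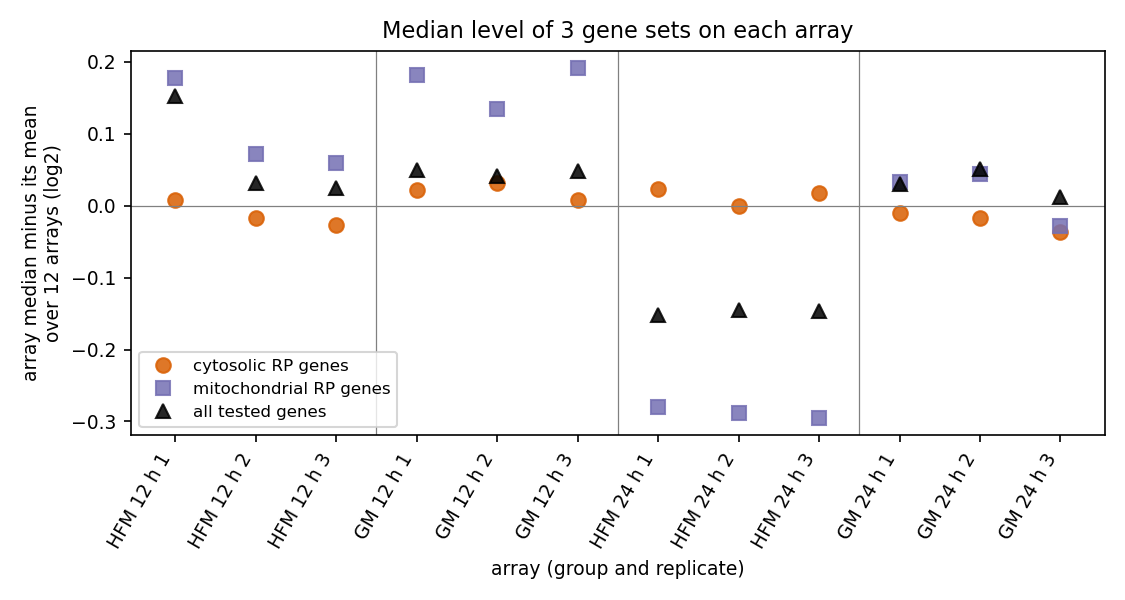
Median log2 value of the cytosolic ribosomal protein genes (circles), the mitochondrial ribosomal protein genes (squares) and all tested genes (triangles) on each array, minus its mean over the 12 arrays. The circles stay close to 0, while the triangles and squares are lowest on the 3 HFM arrays at 24 hours.

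Time was compared within each medium. In GM, 24 against 12 hours gave the most calls, with 7 higher and 15 lower of 54, or 40.7%, against 69.9% of all tested genes, and a median of −0.05. Arrays of the 2 times did not overlap for 45 members, against 78.9% of all tested genes. RPS24 rose by 0.42 ± 0.04, with 13.39, 13.41 and 13.39 at 24 hours in GM against the 12-hour values above. RPL36AL rose by 0.30 ± 0.04, with 12.25, 12.25 and 12.24 at 24 hours in GM, and RPL11 by 0.26 ± 0.04, with 12.92, 12.91 and 12.90. Neither gene's 24-hour arrays overlapped the 12-hour arrays. RPL6 rose by 0.21, RPS6 by 0.18, RPL14 by 0.17 and RPS7, another MDM2-binding protein, by 0.12.

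Falls in GM over time were led by RPL10L (−0.37 ± 0.10), RPL36 (−0.34 ± 0.05), RPL39L (−0.33 ± 0.07) and RPS9 (−0.32 ± 0.05). RPL36 had 12.54, 12.58 and 12.53 at 24 hours in GM, against 12.90, 12.88 and 12.89 at 12 hours in GM. RPS9 had 12.67, 12.65 and 12.57 at 24 hours in GM, against 12.97, 12.92 and 12.95 at 12 hours in GM. In both genes all 24-hour arrays were below all 12-hour arrays. RPL18 fell by 0.28, RPL35 by 0.23, RPL9 and RPL8 by 0.22, RPS3 by 0.20, RPL3 by 0.18, RPLP1 by 0.12 and RPS14 by 0.11. Of the 19 named calls in GM over time, 16 held with any array left out. RPS7, RPS14 and RPLP1 did not, among others without GM replicate 1 at 12 hours, and their adjusted p reached 0.083, 0.095 and 0.077.

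The comparison of HFM with GM at 12 hours and the comparison of 24 with 12 hours in GM share the 3 GM arrays at 12 hours, so agreement between them is not independent. Side by side, the log2 changes were 0.36 and 0.42 for RPS24, 0.23 and 0.26 for RPL11, 0.19 and 0.30 for RPL36AL, −0.21 and −0.34 for RPL36, and −0.22 and −0.32 for RPS9. The GM group at 12 hours had the highest mean of the 4 groups in 31 of 54 members, or 57.4%, against 46.9% of all tested genes.

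In HFM, 24 against 12 hours gave 1 call higher and 10 lower, or 20.4%, against 63.1% of all tested genes (20.1% higher and 43.1% lower), with a median of −0.002. Arrays of the 2 times did not overlap for 26 members, against 65.9% of all tested genes. RPL39L had 8.13, 8.02 and 7.98 at 24 hours in HFM, against 9.11, 8.93 and 8.87 at 12 hours in HFM. The times did not overlap, and the change was −0.93 ± 0.07 (adjusted p = 2.5e-07). RPL35A and RPL18 each fell by 0.21, RPS9 by 0.17, RPL8 and RPS3 by 0.16, RPL36 by 0.15, RPL35 by 0.13, and RPLP1 and RPS15 by 0.12. Other RPL18 probe sets were called higher by 0.96 and 0.29 (limma over all probe sets, adjusted p = 1.2e-05 and 0.046). Other RPL35A probe sets were called higher by 0.44 and lower by −0.28 (limma over all probe sets, adjusted p = 0.0010 and 0.0013). These RPL18 and RPL35A probe sets had means under log2 10. An RPL35A probe set above log2 10 differed by −0.03 and was not called. RPL39 had 13.64, 13.65 and 13.64 at 24 hours in HFM, against 13.37, 13.52 and 13.58 at 12 hours in HFM, and was called higher by 0.15 (adjusted p = 0.028). Without HFM replicate 1 at 12 hours, its lowest array, the change of RPL39 was 0.09 and remained called, and without any 1 of the 24-hour arrays the call was lost. RPL36 and RPL35 lost their calls without HFM replicate 1 or 2 at 24 hours, RPLP1 without HFM replicate 1 or 3 at 24 hours, and RPS15 without any HFM array at 24 hours or HFM replicate 2 at 12 hours, with adjusted p up to 0.093. The count of called members was 6 without HFM replicate 1 at 24 hours, 7 without HFM replicate 2 at 24 hours and 14 without HFM replicate 1 at 12 hours. These fits called 59.5%, 58.0% and 64.4% of all tested genes in that order. With the arrays centred, the median of the tested genes having differed by −0.22, 46 members were called higher and 1 lower, with a median of 0.22. Of all tested genes, 68.0% were called in either direction on that scale, with a median of 0.10. With repeated quantile normalisation 4 members were called higher and 12 lower, against 64.3% of all tested genes called. The medians there were −0.02 for the members and 0.01 over all tested genes.

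The change of the HFM effect between 12 and 24 hours was tested directly. It was called for 5 of 54 members, 2 higher and 3 lower, or 9.26%, against 52.8% of all tested genes. For RPS24 the difference was −0.33 ± 0.06 (SE, adjusted p = 0.00070), with a change of 0.04 at 24 hours and 0.36 at 12 hours. The RPS24 probe set with a mean of log2 8.15 gave no call for the difference (−0.05, adjusted p = 0.86), with changes of 1.34 at 24 hours and 1.38 at 12 hours. For RPL36AL it was −0.30 ± 0.06, with −0.11 at 24 hours and 0.19 at 12 hours. For RPL39L the difference was −0.59 ± 0.09, with a larger fall at 24 hours. RPL36 (0.19 ± 0.07) and RPL10L (0.43 ± 0.14) differed in the other direction. RPL36 lost its call when any array other than HFM replicate 1 at 12 hours was left out, and RPL10L without GM replicate 2 at 24 hours, where its difference was 0.38 and its adjusted p 0.051. In all, 14 members were called without HFM replicate 1 at 12 hours and 3 without GM replicate 2 at 24 hours. The shares of all tested genes were 62.1% and 47.3%. With the arrays centred, the differences of RPS24 and RPL36AL were −0.13 and −0.10 and were not called (limma, adjusted p = 0.14 and 0.17). On that scale 38 members were called upward and 1 downward, against 62.5% of all tested genes called. With repeated quantile normalisation 3 were called upward and 8 downward, against 56.2% of all tested genes called.

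A further set of values came from the other probe sets of the same genes. Of the 54 members, 30 had 54 other probe sets above the limit, and 33 of these, from 22 genes, had means under log2 10. They were tested over all 24649 such probe sets. At 24 hours, 18 of the 33 were called higher in HFM and 1, of RPS23, lower, with a median of 0.33, against 23.3% higher and 35.4% lower among all probe sets under log2 10. Of the 33, 3, of RPL7, RPS14 and RPS27, reached the log2 limit of 4 on 3 arrays only with the HFM arrays at 24 hours. A rise there was thus built into their selection, and they are given no fold change here. Of the other 30, 16 were called higher at 24 hours. At 12 hours 7 of the 33 were called higher and 7 lower, against 32.3% and 27.5%. In HFM, 23 of the 33 were called higher and 2 lower at 24 against 12 hours, with a median of 0.50, against 22.5% and 40.2%. These 23 include the 3 probe sets whose rise on HFM arrays at 24 hours was built in. The medians of 0.33 and 0.50 include them too and were not taken without them. In GM, 11 were called higher and 5 lower over time, against 32.2% and 34.2%. Of the 21 other probe sets at log2 10 or more, 2, of RPL22, were called higher in HFM than in GM at 24 hours. Of the 21, 0 were called lower, and the shares of all 24649 were 23.2% higher and 35.6% lower. The chosen probe sets of the 54 genes gave 1 call higher and 1 lower in the same comparison.

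The genes with low probe sets named here were chosen after their values were seen. A RPS15A probe set had 7.40, 7.41 and 7.46 on HFM arrays at 24 hours, against 5.25, 5.38 and 5.15 on GM arrays at 24 hours, a change of 2.16. A RPL37A probe set had 9.04, 8.97 and 9.16 on HFM arrays at 24 hours, against 7.09, 7.14 and 7.16 on GM arrays at 24 hours, a change of 1.93. Neither of these overlapped between media. Low probe sets of RPL31 (1.50), RPS24 (1.34), RPS16 (1.29), RPS19 (1.04) and RPL18 (1.03) were called higher too, while the chosen probe sets of these 5 genes were not called. What part of each transcript or which related transcript these probe sets bind is not recorded in the labels or files used. The ACTB 3′ minus 5′ signal was also highest on the HFM arrays at 24 hours, and its part in these values was not tested.

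**Figure D5:**
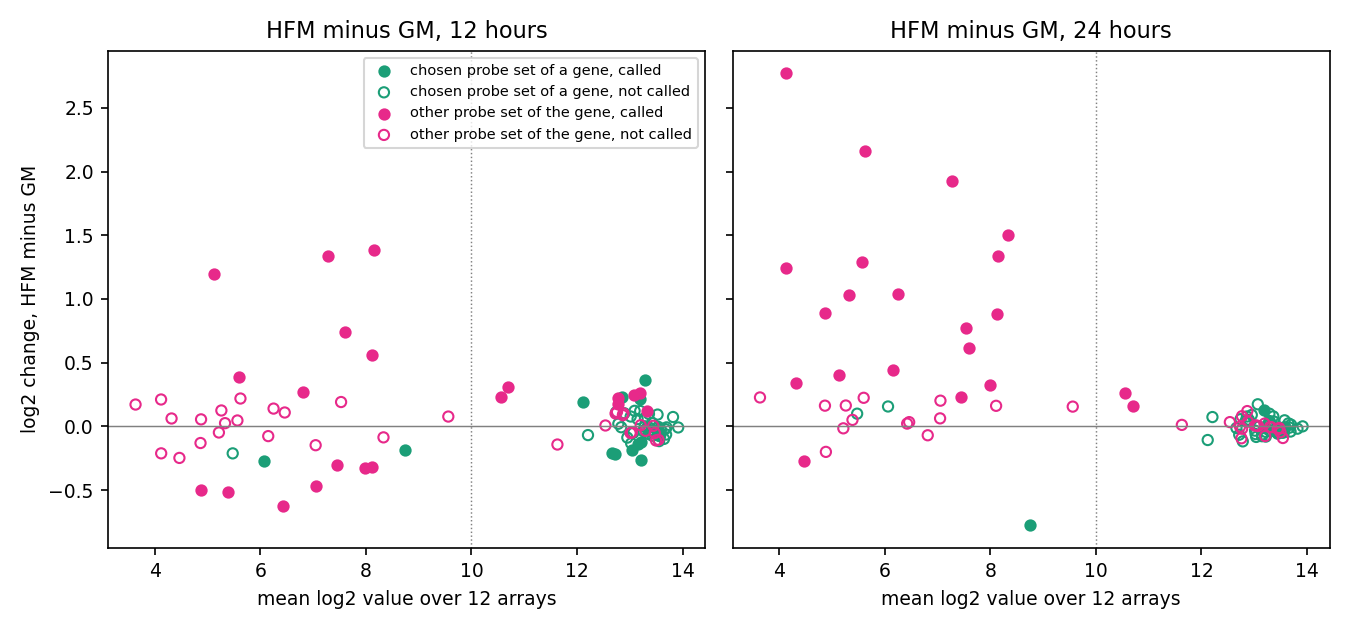
Log2 change, HFM minus GM, at 12 hours (left) and 24 hours (right), against the mean log2 value over 12 arrays, for the chosen probe set of each of 54 ribosomal protein genes (green) and the other probe sets of the same genes (pink); filled points were called over 24649 probe sets, and the dotted line marks log2 10. At 24 hours the points right of the line stay near 0, while 18 of the 33 pink points left of it were called higher. Of the 33, 3 reached the log2 limit only with the HFM arrays at 24 hours, and 16 of the other 30 were called higher.

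Genes that work with the ribosomal proteins were counted from lists, to be read against the 58.1% of all tested genes called at 24 hours (20.6% higher and 37.5% lower) and the 61.9% called at 12 hours. Of 18 assembly factors and dedicated chaperones, 1 was called higher and 15 lower in HFM at 24 hours, with a median of −0.53, against 5 higher and 10 lower at 12 hours. LTV1, a factor of small subunit export, was lower by −1.01 at 24 hours, GRWD1, a histone-binding factor that also binds a ribosomal protein, by −0.96, and MRTO4, a factor of stalk assembly, by −0.91. NMD3, the export adaptor of the large subunit, was higher by 0.14 at 24 hours and by 0.90 at 12 hours. The count at 24 hours was 2 higher and 15 lower with the arrays centred. Of 13 elongation factors and other TOP mRNAs, 3 were called higher and 0 lower at 24 hours (HNRNPA1 by 1.19, EIF4B by 0.36 and EEF2 by 0.24), and 5 higher and 3 lower at 12 hours. At 24 hours 10 of those 13 were called higher with the arrays centred.

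Of 11 regulators of TOP mRNA translation, 4 were called higher and 5 lower at 24 hours in HFM. EIF4EBP2, an inhibitor of cap-dependent translation, was lower by −1.26, RPTOR, a subunit of mTOR complex 1, by −0.71, and LARP1, which binds the TOP tract, by −0.37. At 12 hours 6 were called higher and 3 lower, led by RPS6KB1, an S6 kinase, at 0.94. Of 10 rescue and quality control factors, 3 were called higher and 3 lower at 24 hours, and 4 higher and 2 lower at 12 hours, close to the share over all tested genes. FAU, whose product includes a small subunit protein, was called lower at 12 hours by −0.16 (adjusted p = 0.036). The paralogue genes RPL22L1 and RPL7L1 moved apart at 24 hours, RPL22L1 higher by 0.71 and RPL7L1 lower by −0.75, while RPL26L1 was called lower by −0.21 as deposited and was not called with the arrays centred (−0.03). None of the 3 was called at 12 hours.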

How the data were processed

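RNA of 12 samples was measured on Affymetrix human arrays of 54675 probe sets. The authors deposited log2 values; GCRMA is the tool named in the submitters' processing notes, with no version stated.

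Of the probe sets, 41097 had 1 gene symbol, 1801 several and 11777 none, and only the first were named. Entrez identifiers of 41043 probe sets matched the reference. The probe set of highest mean stood for each of 19775 genes, and 13130 genes that reached log2 4 on 3 or more arrays were tested. For RPL3 and RPL27A only a remaining probe set with 1 symbol was used. Means of 4 groups were fitted in limma 3.58.1 (lmFit and eBayes, R 4.3.3) over all 12 arrays, with Benjamini-Hochberg adjustment over all tested genes and a threshold of 0.05. The same model was fitted to 24649 probe sets. The pipeline was tested on simulated data. The number of arrays limits the precision.

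Members and lists were chosen with earlier results of these data known. Every member was counted; up to 10 called rises and 10 called falls per comparison, members of a fixed list, and up to 3 called genes per direction of each companion list were named.

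Alternatives changed the filter, the choice of probe set, the scaling, the variance model, the groups in the fit, a replicate block, a hybridisation control class and single arrays. The main fit did not pair arrays by replicate number. Correlations of same-numbered deviations ran from −0.17 to 0.42, and 7 of 18 were over 0.1, which does not settle whether the numbers mark pairs. RefSeq starts (GRCh38.p14) were read with Python 3.11.15.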

Additional observations from a re-analysis of the deposited data

Results flagged for a closer look

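For 5 ribosomal protein genes the HFM effect differed between 24 and 12 hours in a test of that difference (limma, adjusted over 13130 genes). The difference, as the effect at 24 hours minus that at 12 hours on the log2 scale, was −0.59 for RPL39L, −0.33 for RPS24 and −0.30 for RPL36AL. It was 0.43 for RPL10L and 0.19 for RPL36. A second RPS24 probe set, with a mean of log2 8.15, gave −0.05 and was not called (adjusted p = 0.86). With the arrays centred on the median of the tested genes, the differences were −0.39 for RPL39L, −0.13 for RPS24, −0.10 for RPL36AL, 0.63 for RPL10L and 0.40 for RPL36, and those of RPS24 and RPL36AL were no longer called.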

How the results depend on the processing

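The 5 comparisons are called here medium at 12 hours, medium at 24 hours, time in GM, time in HFM and the difference of the medium effect between times. The number of called members was 16, 3, 22, 11 and 5 in that order, and the median changes are on the log2 scale. Of all tested genes, 61.9%, 58.1%, 69.9%, 63.1% and 52.8% were called. Percentages in brackets below are the shares of all tested genes called under the same setting, in the order of the counts. Over 1835 values of named genes under other settings, 1535 kept direction and call, 178 lost the call, 76 gained it and 46 turned their sign and were called before or after. RPS24, RPL11, RPL36AL, RPL9 and RPL35 stayed called for medium at 12 hours under every setting that gave them a value, and RPL39L for medium at 24 hours. The cause of each change below was not tested, except that leaving out arrays or groups leaves fewer samples.

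Without a filter on low values, the called members numbered 1 for medium at 24 hours and 7 for time in HFM (38.0% and 42.1%). With a filter at log2 6, the called members numbered 18 for time in HFM and 9 for the difference (76.6% and 63.0%). With the probe sets of each gene averaged, the called members numbered 17 for medium at 24 hours, 24 for time in HFM and 23 for the difference (61.4%, 65.6% and 54.5%). The median change was −0.0094 for medium at 12 hours, 0.051 for medium at 24 hours, −0.031 for time in GM, 0.015 for time in HFM and 0.061 for the difference. The sign turned for medium at 24 hours in RPL35A (0.31), RPS14 (0.52) and RPS19 (0.33), and for time in GM in RPS27 (0.41) and RPS27L (−0.22). It also turned for time in HFM in RPL18 (0.35), RPL35A (0.31), RPS14 (0.44), RPS19 (0.29) and RPS27 (0.46), and for the difference in RPS27L (0.21). Without probe sets of the type that may bind other transcripts, the called members numbered 6 for medium at 24 hours and 9 for the difference (58.9% and 53.6%). The sign turned for time in HFM in RPL22 (0.18). With only probe sets of neither shared type, the called members numbered 9 for medium at 24 hours and 8 for the difference (58.8% and 53.2%). The median change was 0.068 for medium at 24 hours, −0.093 for time in GM and 0.059 for the difference. The sign turned for medium at 12 hours in RPL14 (−0.13), RPS6 (−0.50) and RPS14 (0.055), and for medium at 24 hours in RPS14 (0.89). It also turned for time in GM in RPS6 (−0.22), RPL14 (−0.15), RPS27 (0.88) and RPS27L (−0.45). For time in HFM it turned in RPS14 (0.68), RPS27 (0.93), RPS27L (−0.24) and RPL22 (0.27). The RPS27 values under this setting are those of a probe set with a mean of log2 3.64. That probe set reached log2 4 on 3 arrays only with the HFM arrays at 24 hours, so a rise there was built in. Neither RPS27 value is taken as a change of direction of the gene. With arrays centred on the median of the tested genes, the called members numbered 49 for medium at 24 hours, 47 for time in HFM and 39 for the difference (63.1%, 68.0% and 62.5%). The median change was −0.050 for medium at 12 hours, 0.17 for medium at 24 hours, −0.031 for time in GM, 0.22 for time in HFM and 0.22 for the difference. The sign turned for medium at 24 hours in RPL35A (0.061), RPS6 (0.16), RPS14 (0.16), RPS19 (0.14) and RPLP1 (0.14), and for time in HFM in RPL18 (0.0076), RPL35A (0.0086), RPS9 (0.050), RPL8 (0.055), RPS3 (0.056), RPL36 (0.071), RPL35 (0.091), RPLP1 (0.094), RPS15 (0.10), RPS14 (0.20), RPS19 (0.15), RPS27 (0.21), RPL3 (0.22) and RPL22 (0.22). It also turned for the difference in RPL22 (0.15) and RPLP1 (0.19). With repeated quantile normalisation, the called members numbered 10 for medium at 24 hours and 11 for the difference (60.7% and 56.2%). The median change was −0.021 for time in HFM and −0.0095 for the difference. With robust trended eBayes, the called members numbered 28 for medium at 12 hours, 12 for medium at 24 hours, 25 for time in HFM and 20 for the difference (62.6%, 58.9%, 63.3% and 53.7%). With only the compared groups in the fit, the called members numbered 8 for medium at 12 hours, 5 for medium at 24 hours and 3 for time in HFM (52.5%, 63.6% and 55.6%). With arrays split at the largest gap in their hybridisation control signal, the called members numbered 1 for medium at 24 hours and 3 for the difference (52.7% and 47.3%). With the split at the second largest gap, chosen after seeing the data, the called members numbered 9 for medium at 24 hours and 17 for the difference (66.5% and 63.2%). The median change was −0.011 for medium at 12 hours. The sign turned for time in GM in RPL39 (−0.15).

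When single arrays were left out, the called members numbered 8 to 21 for medium at 12 hours, 1 in each fit for medium at 24 hours, 17 to 19 for time in GM, 6 to 14 for time in HFM and 3 to 14 for the difference. These fits called 54.6% to 68.4%, 52.7% to 55.0%, 64.1% to 66.4%, 58.0% to 64.4% and 47.3% to 62.1% of all tested genes in that order. With a replicate block, called members numbered 14 for medium at 12 hours, 3 at 24 hours, 21 for time in GM, 12 for time in HFM and 6 for the difference, and the block moved no count by over 1.5 times. The fit with the block called 63.0%, 59.1%, 70.4%, 63.7% and 53.9% of all tested genes in that order. Of 18 pairs of same-numbered arrays, 8 were the best match of the first array, and the correlations ran from −0.17 to 0.42. Deviations from means of 3 arrays cannot settle whether same-numbered arrays share a culture, and the main fit used no pairing.

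The limits of these values are the 3 arrays a group, the place of 51 of 54 members at log2 12 or more, where the arrays' highest values lie, and the choice of scale, with which the calls at 24 hours changed. The arrays give no absolute amounts of RNA per cell.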

Other observations

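RPS25, a small subunit protein, had the widest spread within a group of the 54 members, with an SD of 0.248 on HFM arrays at 12 hours (n = 3). It was singled out after its values were seen. It had 12.69, 13.13 and 13.11 on HFM arrays at 12 hours, against 13.04, 13.03 and 13.02 on GM arrays at 12 hours, so 1 HFM array lay below all others. At 24 hours it had 13.17, 13.27 and 13.22 on HFM arrays, against 12.95, 13.03 and 13.16 on GM arrays. The media did not overlap at 24 hours, and the difference of 0.17 was not called (limma, adjusted p = 0.17). RPL41, the member with the highest mean, had values between 13.88 and 13.93 on all 12 arrays.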
